A study of Glycine max with 26 samples.

Results

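The MYB transcription factors of soybean seed were followed as every probe set of an expression array whose single gene symbol in the platform annotation is MYB and a number. The rule found 47 probe sets with 32 symbols among 16383 in the table, and it left out LHY and LCL3, the clock genes of the same superfamily. The mean over the arrays was above 4 on the log2 scale, the minimum for a test, for 27 of the 47 probe sets (57.4%), from 21 symbols, against 11481 (70.1%) of the whole table. A further 12 probe sets name several genes with a MYB among them and are not members.

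Seeds of the cultivar Williams 82 were collected with their seed coats from pods whose flowers had been marked on opening, when the pods were 5 weeks old. Plants were grown at 25 °C and 75% relative humidity in cycles of 12 h of light and 12 h of dark, and were moved to constant light of 350 µmol per m2 per s at a subjective dawn. Seeds were taken at 13 times, every 4 h from 24 h (a subjective dawn) to 72 h. Each time has 2 samples, each a pool of 8 seeds from 3 plants, which gives 26 arrays. All samples share genotype, labelled stage and constant light, so time is the only labelled difference between the groups. The subjective night is 40, 44, 64 and 68 h, the subjective day 28, 32, 52 and 56 h, dawn 24, 48 and 72 h, and dusk 36 and 60 h. Each pool mixes the seed's tissues, so fewer cells of a type and less RNA per cell cannot be told apart. Nothing says whether the pools of a time came from separate plants, so the p-values measure the spread between these pools, which may be technical.

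MYB proteins bind DNA through repeats of a conserved helix domain. Those with a pair of repeats form the largest class in plants and act in phenylpropanoid metabolism, cell fate and stress responses. Those with a single repeat include the core clock factors. In soybean, MYB176 is known to bind the promoter of CHS8, a gene for chalcone synthase, the first committed enzyme of flavonoid synthesis, and MYB133 has been described as a single-repeat MYB that acts on the same isoflavonoid pathway. MYB92 and MYB177 are known from Arabidopsis plants that express them and tolerate salt and freezing better. MYB84 is known for drought tolerance and MYB73 for raised lipid in transgenic plants. For the other members no role is given here.

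The values are log2 of GCRMA signal, a normalized array signal with no absolute unit. They are compared only within a probe set, and the order of means below describes the array. The lowest value on an array ranged from 1.54 to 3.02, with 13 arrays at 2.04 or under and 13 at 2.40 or over, 1 of each kind at every time. Of the 27 tested members, 23 had a higher mean on the arrays with the high lowest signal, as did 67.7% of all tested probe sets. At all 13 times this held for MYB13 (mean difference 0.95), both MYB83 probe sets (0.86 and 0.61) and MYB134 (0.48). Array medians ran from 6.08 to 6.47, and the 2 arrays of a time correlated at 0.977 to 0.994 across probe sets. The tissue label was met by the storage protein markers, 11 of whose 13 probe sets stayed above 11 on every array, while the CG-1 marker had a median of 2.28.

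The MYB symbols covered a broad range of signal. MYB112 was brightest, with a mean of 9.88, then MYB176 at 9.84 and MYB81 at 9.64. These 3 probe sets were the only members above 9. In all, 18 tested members had a mean above 6, and 9 lay between 4 and 6. The neighbours in this order often lay within each other's range: MYB112 spanned 9.57 to 10.24 over the arrays, MYB176 9.62 to 10.01 and MYB81 9.11 to 9.98. The upper part of the list went on with MYB172 (8.60), MYB50 (8.34) and MYB107 (8.22), and MYB180, MYB83, MYB133, MYB93 and MYB177 lay between 7.67 and 7.90 by their strongest probe set. MYB175 (7.29), MYB92 (6.64) and MYB136 (6.22) came next. The dimmest tested symbols were MYB145 (5.72), MYB75 (5.17), MYB57 (5.13), MYB48 (5.07), MYB134 (5.01), MYB143 (4.92) and MYB13 (4.69). Other probe sets of these symbols were below the minimum, with means of 2.24 and 2.23 for MYB13 and 2.71 for MYB145. The median of the tested members' means was 7.27, against 7.57 for all tested probe sets.

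**Figure D1:**
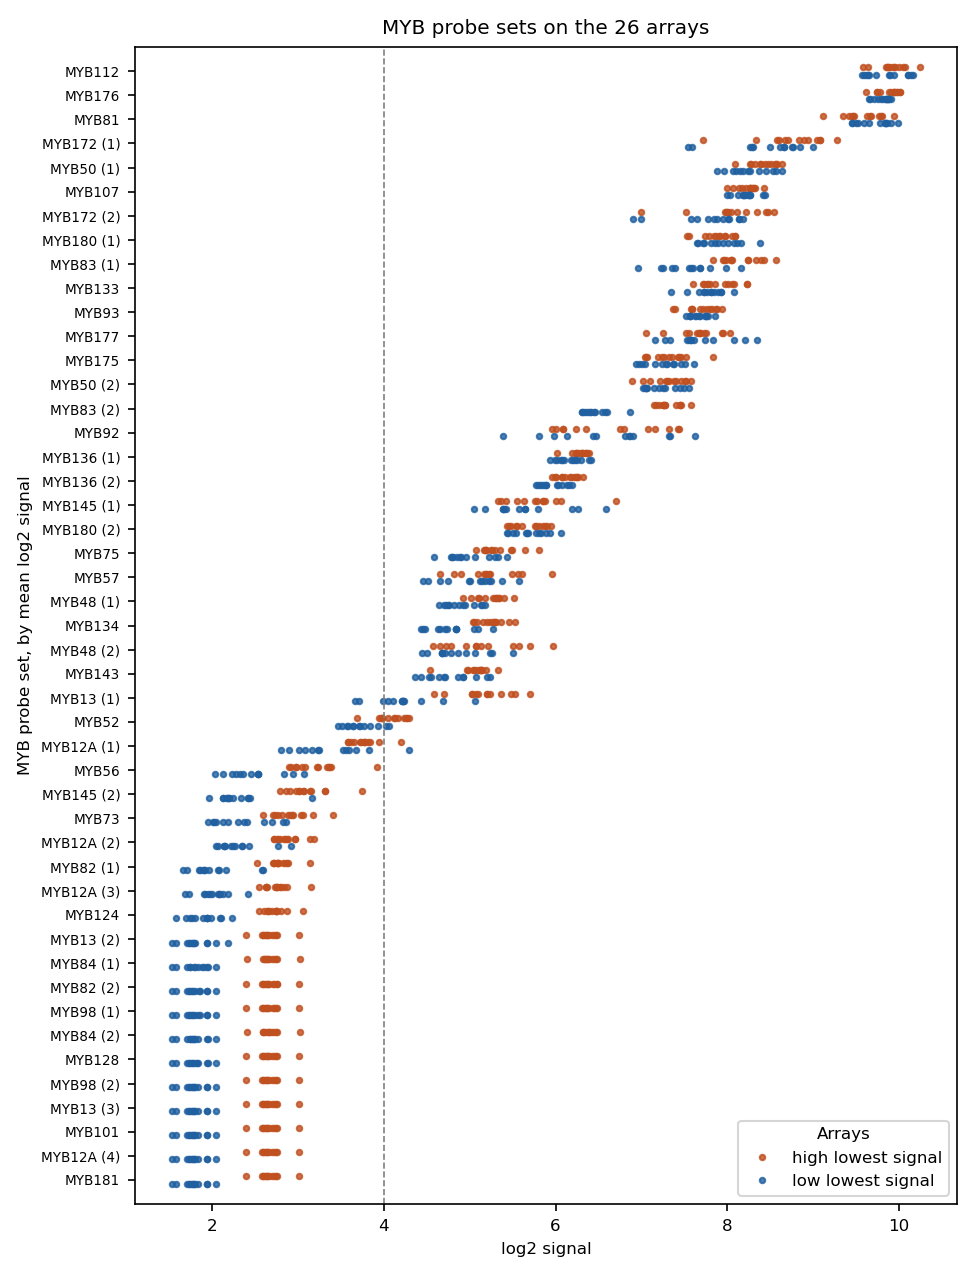
Log2 signal of each of the 47 MYB probe sets on the 26 arrays, by mean, with points coloured by whether the array's lowest signal was high or low and a dashed line at the minimum mean of 4. The upper 27 probe sets have means above the line, 18 of the 20 others never cross it, and in 14 of those 20 the array with the high lowest signal is the higher of its pair at all 13 times.

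The 20 untested probe sets gave little or no signal in these seeds. Of them, 18 were never above 4 on any array, and 16 had a mean under 2.7, within the range of the arrays' own lowest values. All 20 were higher on the arrays with the high lowest signal. MYB52 lay just outside the minimum, with a mean of 3.91 and a range of 3.47 to 4.29, and MYB13 just inside, with 4.69 and a range of 3.67 to 5.70. The 11 symbols with no tested probe set were MYB12A, MYB52, MYB56, MYB73, MYB82, MYB84, MYB98, MYB101, MYB124, MYB128 and MYB181. The lipid factor MYB73 averaged 2.63 and the drought factor MYB84 2.24 and 2.23 on its 2 probe sets.

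The SD between the 2 pools of a time ran from 0.10 to 0.73 over the tested MYB members. The median replicate SD was 0.225 for the MYB members, against 0.33 for 6 NAC, 0.208 for 36 BZIP and 0.279 for 14 WRKY probe sets, families that were chosen for comparison, and 0.21 for all tested probe sets. The median amplitude of a fitted 24 h cosine was 0.089 in the MYB members, against 0.147 in NAC, 0.108 in BZIP, 0.103 in WRKY and 0.08 in all tested probe sets.

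No MYB member was called rhythmic. The question is whether the free-running clock moves these genes over 2 cycles. With a 24 h cosine and limma, 0 of 27 members had an adjusted p under 0.05, against 1.2% of all tested probe sets, and 3 had an unadjusted p under 0.05, against 10.3%. The members nearest to the threshold were MYB93, MYB177 and MYB133, followed by MYB92 and MYB176.

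MYB93 fitted an amplitude of 0.12 ± 0.04 (SE) and peaked 0.68 h past the subjective dawn (limma adjusted p = 0.193). The dawn arrays had 7.74 and 7.87 at 24 h, 7.75 and 7.76 at 48 h and 7.93 and 7.86 at 72 h. The dusk arrays had 7.52 and 7.58 at 36 h and 7.68 and 7.58 at 60 h. Every dawn array of MYB93 lay above every dusk array. Non-overlapping dawn and dusk arrays were found for 1 of 27 members and for 1.14% of all tested probe sets. MYB93 averaged 7.82 ± 0.08 at dawn (SD, n = 6) and 7.59 ± 0.07 at dusk (SD, n = 4), and the limma difference of 0.23 ± 0.09 (SE) did not pass over all probe sets (adjusted p = 0.758).

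MYB177 had an amplitude of 0.21 ± 0.07 (SE), with its peak at 3.57 h (limma adjusted p = 0.329). MYB92 had 0.39 ± 0.16 with its peak at 7.22 h (adjusted p = 0.515), MYB133 0.14 ± 0.05 at 6.22 h (adjusted p = 0.448) and MYB176 0.08 ± 0.04 at 5.78 h (adjusted p = 0.580). Although none passed, 16 of the 27 fitted peaks (59.3%) lay around the middle of the subjective day and 1 (3.7%) around the middle of the subjective night, against 43.9% and 20.3% of all tested probe sets. A further 8 (29.6%) lay around dawn and 2 around dusk. This is a description of fitted peaks that did not pass the test, and 8 of the 27 amplitudes were below their own SE.

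**Figure D2:**
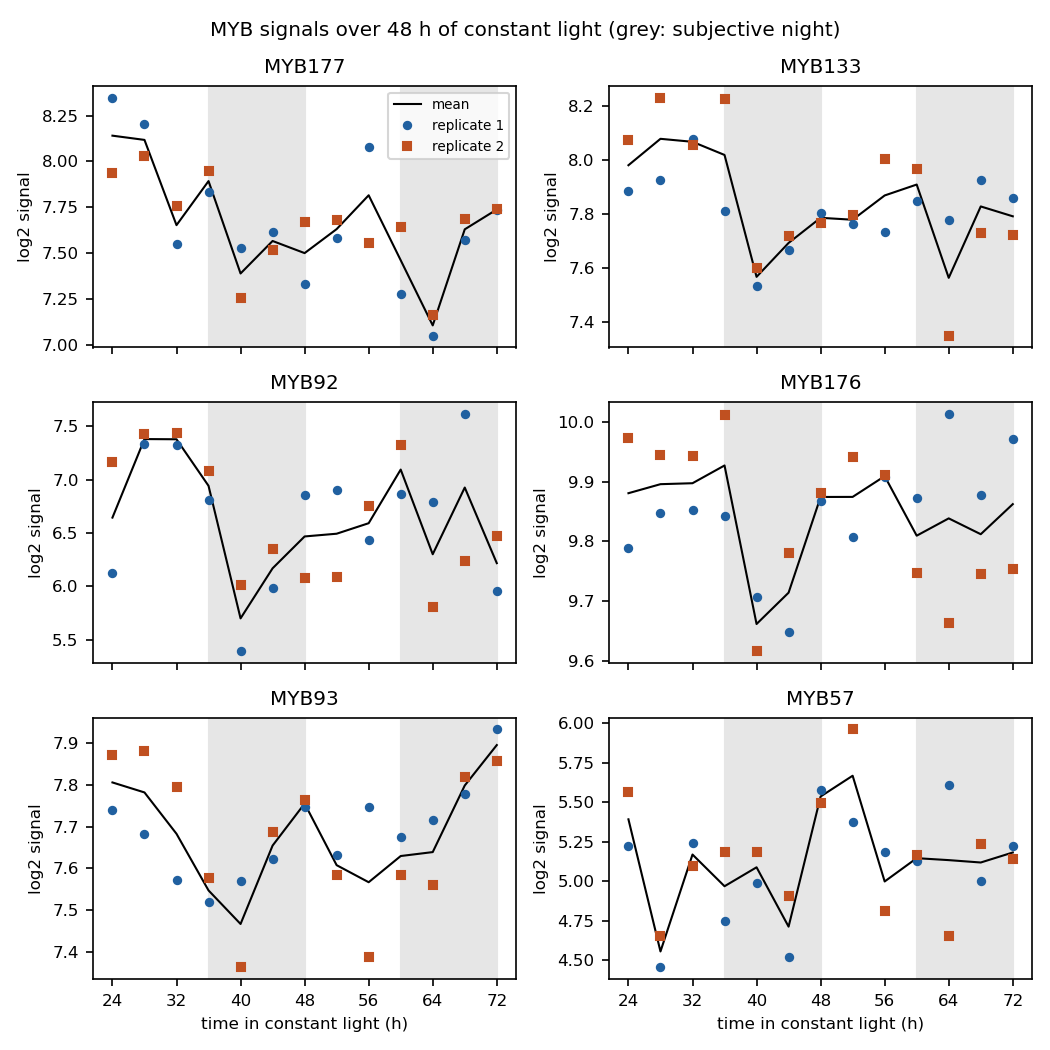
Log2 signal of MYB177, MYB133, MYB92, MYB176, MYB93 and MYB57 against hours in constant light, with both replicate arrays as points, the mean as a line and the subjective nights shaded grey. MYB177 is lowest at 64 h (7.05 and 7.16), and MYB92 dips at 40 h (5.39 and 6.01) and differs by up to 1.385 between the replicates of a time, at 68 h.

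MYB177 passed the comparison of subjective night with day, with lower signal at night. Its night arrays had 7.53 and 7.25 at 40 h, 7.62 and 7.52 at 44 h, 7.05 and 7.16 at 64 h and 7.57 and 7.69 at 68 h. Its day arrays had 8.21 and 8.03 at 28 h, 7.55 and 7.76 at 32 h, 7.58 and 7.68 at 52 h and 8.08 and 7.55 at 56 h. The groups overlapped: the lowest day arrays lay within the upper part of the night range. MYB177 averaged 7.42 ± 0.23 at night and 7.80 ± 0.26 by day (SD, n = 8 each), a log2 difference of -0.38 ± 0.09 (SE), or 1.30-fold lower at night (limma, Benjamini-Hochberg adjusted p = 0.0316). The call lay close to the threshold and depended on which arrays were kept. Leaving out any of 12 of the 26 arrays ended it, at adjusted p of 0.0505 to 0.0861. All 12 were among the 16 night and day arrays, the arrays whose means are compared. The difference lay between -0.45 and -0.32 over all 26 fits that left out 1 array. In 3 of those 12 fits another member passed in its place, MYB133 without replicate 1 of 56 h or of 64 h and MYB92 without replicate 1 of 68 h. These were, at night, both arrays of 44, 64 and 68 h and replicate 2 of 40 h, and by day both arrays of 32 h, replicate 1 of 28 and 56 h and replicate 2 of 52 h. Without the minimum on the mean the adjusted p was 0.0706, and without both 40 h arrays, a fit added after the values were seen, it was 0.0704.

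Among the 27 members, 1 passed this night and day comparison (3.68% of all tested probe sets did, 245 higher and 177 lower at night), and 4 had an unadjusted p under 0.05, all lower at night, against 17.9% of all tested probe sets. The share of called members was close to the background. Signal was lower at night in 23 of 27 members, against 7275 of 11481 tested probe sets, and the median difference was -0.106 in the members and -0.048 in all.

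The isoflavonoid factor MYB133 stood nearest to the threshold on the same side. Its night arrays had a lowest value of 7.35, a median of 7.69 and a highest of 7.93, and its day arrays 7.73, 7.97 and 8.23. The ranges met only between 7.73 and 7.93. MYB133 averaged 7.66 ± 0.17 at night and 7.95 ± 0.18 by day (SD, n = 8 each), a log2 difference of -0.29 ± 0.08 (SE, limma adjusted p = 0.0663). With the arrays' high or low lowest signal as a block, MYB133 passed as well (adjusted p = 0.0326), beside MYB177 (0.029).

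The stress factor MYB92 had the largest difference among the members in size, with widely spread arrays. Its night arrays had a lowest value of 5.39, a median of 6.12 and a highest of 7.62, and its day arrays 6.09, 7.11 and 7.44. The highest night array lay above every day array. MYB92 averaged 6.27 ± 0.68 at night and 6.96 ± 0.51 by day (SD, n = 8 each), a difference of -0.69 ± 0.22 (SE, limma adjusted p = 0.0984). MYB176 had night arrays of 9.62 to 10.01 and day arrays of 9.81 to 9.95, and its difference was -0.14 ± 0.07 (adjusted p = 0.299). In the direction of higher signal at night, MYB143 had 0.24 ± 0.15 (adjusted p = 0.409).

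**Figure D3:**
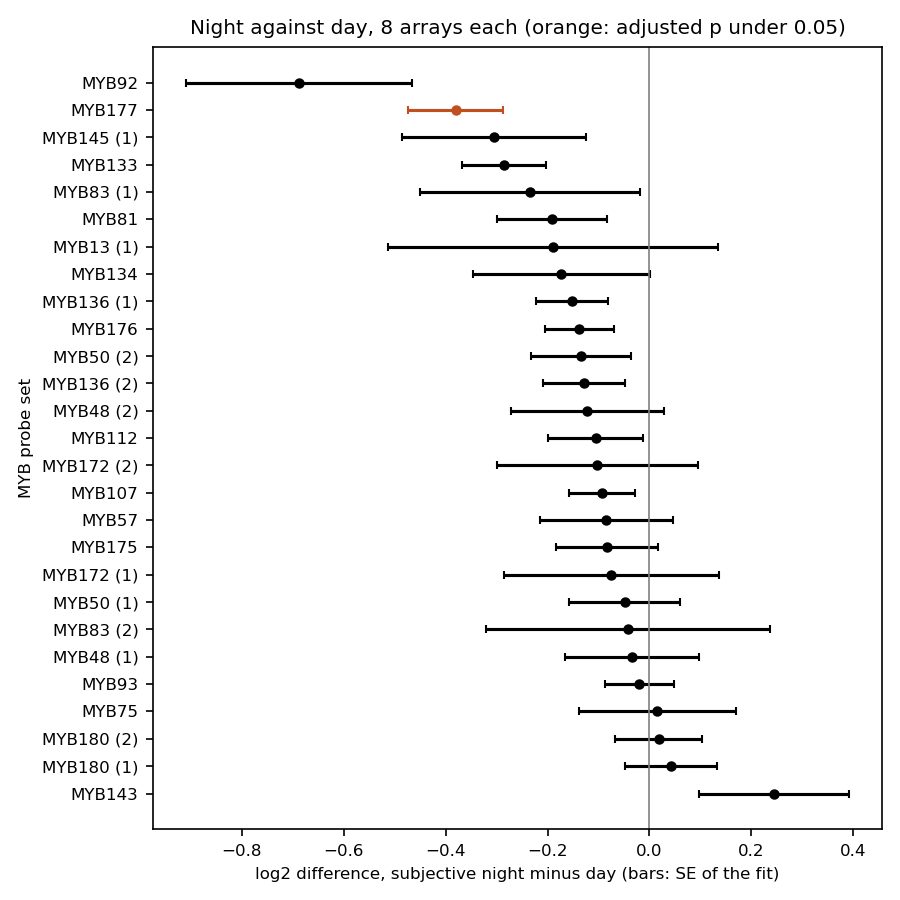
Log2 difference, subjective night minus subjective day, of the 27 tested MYB probe sets with bars of 1 standard error, n = 8 arrays each. Of the points, 23 lie left of 0, and MYB177 at -0.38 is the member past the adjusted threshold in this fit, while MYB92 at -0.69 is farther out with a wider bar.

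No member was called for any difference between the 13 times, where 0.0436% of all tested probe sets passed; 3 members had an unadjusted p under 0.05, against 7.49% of all. MYB177 came first, with time means that spanned 1.03 on the log2 scale (limma adjusted p = 0.205). It was highest at 24 h, with 8.35 and 7.93, and lowest at 64 h. MYB57 spanned 1.11 (adjusted p = 0.574), from 4.45 and 4.65 at 28 h to 5.38 and 5.96 at 52 h. MYB92 spanned 1.68 (adjusted p = 0.622).

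Among the brightest members, time means spanned 0.27 for MYB176, 0.58 for MYB112, 0.51 for MYB81 and 0.50 for the stronger MYB50 probe set. The median span of the tested members was 0.539. MYB112 had its highest arrays at 48 h, 10.16 and 10.24, and its lowest time at 64 h, with 9.59 and 9.65. MYB50, by its stronger probe set, was also highest at 48 h, with 8.64 on both arrays, and had 7.89 and 8.39 at 36 h. The other tested MYB50 probe set was highest on average at 48 h too, but had its highest array, 7.57, at 36 h. MYB81 had 9.98 and 9.94 at 32 h and 9.11 and 9.84 at 72 h, so that its lowest array stood beside a replicate near its highest. MYB172 separated more widely between replicates. Its arrays had 7.59 and 9.05 at 56 h, 7.54 and 8.83 at 60 h and 7.71 and 8.66 at 72 h, while at 24 h they had 8.99 and 9.08. In these 3 pairs of MYB172 the first replicate was the low one.

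A trend over the 48 h was called for no member and for 0% of all probe sets; 2 members, both falling in the fit, had an unadjusted p under 0.05, against 5.33% of all. The fitted change over 48 h was -0.37 ± 0.16 (SE) for MYB177 (limma adjusted p = 0.852) and -0.58 ± 0.26 for MYB172 (adjusted p = 0.886). Between the second cycle and the first, 0 members passed in level (0.00871% of all), and 2 had an unadjusted p under 0.05, 1 in each direction (6.11% of all). MYB177 averaged 7.53 ± 0.28 in the second cycle and 7.79 ± 0.32 in the first (SD, n = 12 each), a difference of -0.27 ± 0.08 (SE, limma adjusted p = 0.600). MYB57 differed by 0.29 ± 0.11 (adjusted p = 0.708).

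Dawn against dusk gave 0 called members and 0% of all probe sets, and 1 member, MYB93, had an unadjusted p under 0.05, against 5.41%. The rhythm itself did not change detectably between cycles in any member (0% of all passed), and 3 members had an unadjusted p under 0.05, against 10.3%. The largest of these changes was in MYB92, whose rhythm differed between cycles by 0.88 ± 0.26 (SE, limma adjusted p = 0.278).

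MYB92 was the member that moved with the mean signal of transcripts that mark late seed maturation. The maturity of the seeds in a pool was not itself measured, and all pools share the labelled stage. What made this mean differ between pools was not tested. Late seed maturation is marked by transcripts for LEA and related protective proteins, and the mean of 29 such probe sets (PM, MP, LEA and SBP65 symbols) ranged from 11.37 to 12.37 over the arrays. The 2 arrays of a time differed in this mean by a median of 0.27 and by up to 0.644, at 68 h. At 68 h MYB92 had 7.62 in the array with more maturation transcript and 6.23 in the other. At the 7 times where the arrays differed by 0.27 or more, MYB92 was higher in the array with more at every time, by 0.316 to 1.385. At the remaining 6 times it was higher in that array at 2. The fit held the 13 times, so its slope rests on the 13 differences between the 2 arrays of a time. Comparing arrays within each time, MYB92 increased by 2.06 ± 0.30 log2 units per log2 unit of the maturation mean (SE, 26 arrays in 13 pairs, limma adjusted p = 0.00142). This held in all 35 alternative fits, with slopes of 1.67 to 2.29 and adjusted p of at most 0.0313.

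No other member passed with the maturation mean in this fit. The count was 1 of 27, against 2.06% of all tested probe sets (67 up and 170 down), and 3 had an unadjusted p under 0.05 (2 up and 1 down), against 20.4%. MYB48 had a slope of -0.88 ± 0.34 (limma adjusted p = 0.157) and MYB81 of 0.62 ± 0.24 (adjusted p = 0.160). MYB48 differed most at 52 h, with 4.86 in the array with more maturation transcript and 5.97 in the other. The median slope was -0.039 in the members and -0.197 in all tested probe sets. The list of maturation transcripts had been used on these data before.

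**Figure D4:**
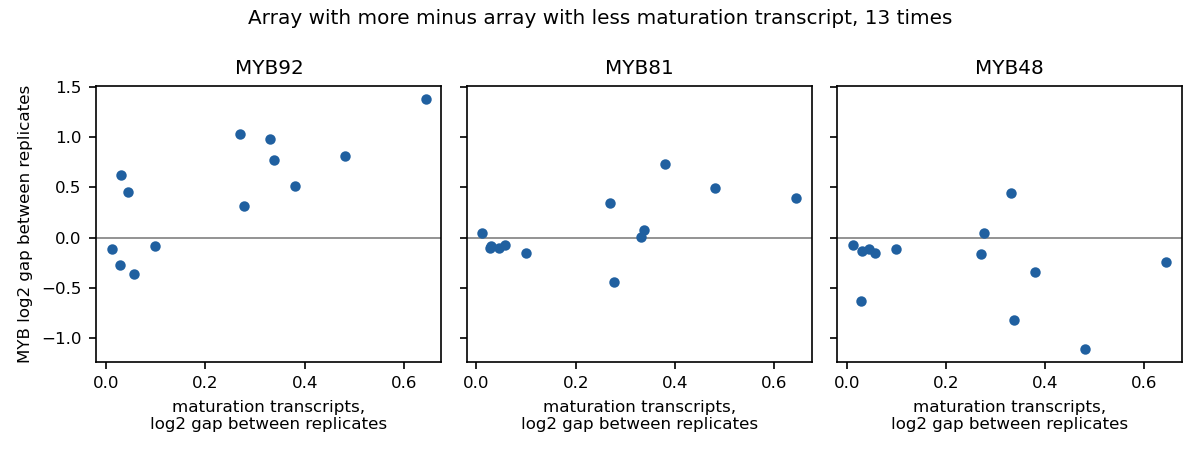
Difference between the 2 arrays of a time in log2 signal of MYB92, MYB81 and MYB48, each against the difference in the mean of 29 maturation probe sets (log2), 13 points per panel. The points of MYB92 climb with the maturation difference, to 1.385 at the difference of 0.644 of the 68 h arrays.

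With the maturation mean as a covariate, which was added after the values were seen, the night and day difference of MYB177 was -0.44 ± 0.09 (SE, limma adjusted p = 0.0163). That of MYB92 moved to -0.38 ± 0.12 (adjusted p = 0.0881), against -0.69 without the covariate, and that of MYB133 to -0.25 ± 0.09 (adjusted p = 0.106). The 40 h arrays, where MYB92 was lowest on average, also had among the lowest maturation means, 11.47 and 11.50. The covariate is a mean of transcript signals, and the part of seed maturity itself in the signal of MYB92 at night was not tested.

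The known link between MYB176 and CHS8 makes their joint variation over the 26 arrays of interest. The MYB176 probe set has an ID of a type that can match several transcripts. It correlated at 0.599 with MYB175, a symbol of the same probe cluster, so its signal may not be of MYB176 alone. The strongest CHS8 probe set, with an ID of the type that can match several chalcone synthase transcripts, was lower at night by 1.27 ± 0.23 on the log2 scale (SE, limma adjusted p = 0.00491). The single CHS8 probe set without such an ID was dim, at 3.51 to 4.83 over the arrays, and differed by -0.15 ± 0.20 (adjusted p = 0.754). MYB176 correlated with the strongest CHS8 probe set with Pearson r = 0.444 (permutation p = 0.0227, adjusted over the 4 CHS8 probe sets 0.0455) and Spearman rho = 0.415 (adjusted 0.0695). Without the 2 arrays of MYB176 farthest from its median r was 0.311. Within the arrays of low and of high lowest signal r was 0.673 and 0.437. By Pearson's r 2 of 4 CHS8 probe sets passed. The permutation moved the 26 arrays freely although they share times, so its p may be too small. By Spearman's rho 0 of 4 passed, with 2 of 4 under 0.05 before adjustment. Between the replicates of a time, over 13 differences, r was 0.003 to 0.535 and 0 of 4 passed by either measure in the exact swap test, before or after adjustment.

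Among the 27 tested members, MYB92, MYB133 and MYB81 had higher correlations with the strongest CHS8 probe set than MYB176. They were looked at after their values were seen, so no p is given over the arrays. MYB81 had r = 0.569 and rho = 0.571, with r of 0.525 and 0.598 within the arrays of low and of high lowest signal. MYB92 had r = 0.889 and rho = 0.87 with the strongest CHS8 probe set over the 26 arrays, and r = 0.898 without the 2 farthest arrays. Within the arrays of low and of high lowest signal r was 0.912 and 0.902. Its differences between the replicates of a time correlated at 0.808 with those of CHS8 over 13 times, with the same sign at 9 of 13, and at 0.55 to 0.828 over the 4 CHS8 probe sets. MYB133 had r = 0.716 and rho = 0.761, with 0.76 and 0.844 in the 2 sets of arrays, and 0.399 over the replicate differences (0.211 to 0.802 over the 4 CHS8 probe sets). With the CHS8 probe set without a shared type of ID, r over the arrays was 0.524 for MYB92 and 0.521 for MYB133, beside 0.448 for MYB176. Within the arrays of low and of high lowest signal these were 0.775 and 0.334 for MYB92, and 0.515 and 0.37 for MYB133. For MYB176 they were 0.435 and 0.253. This dim probe set also gave the highest r over the replicate differences for MYB133, 0.802, and for MYB176, 0.535. The strongest CHS8 probe set, like MYB92, moved with the maturation mean, with a slope of 2.26 ± 0.24 (limma adjusted p = 9.63e-05). The CHS8 probe set without a shared type of ID had a slope of 0.54 ± 0.52 (adjusted p = 0.600) and MYB133 one of 0.26 ± 0.21 (adjusted p = 0.519). After a line on the maturation mean was taken out of each, r with the strongest CHS8 probe set was 0.66 for MYB92, 0.46 for MYB133 and 0.34 for MYB176.

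**Figure D5:**
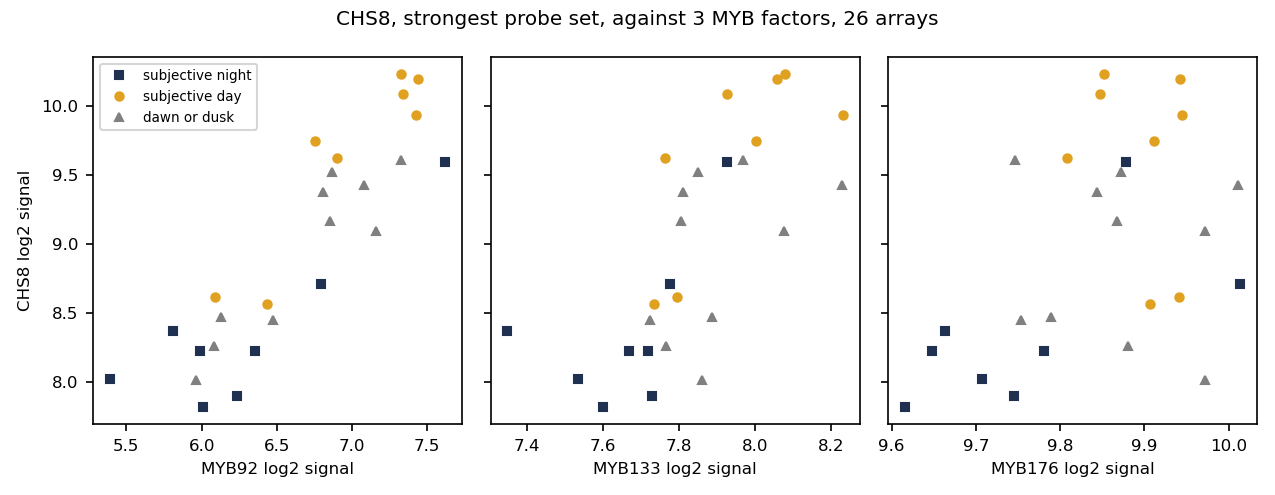
Log2 signal of the strongest CHS8 probe set against that of MYB92, MYB133 and MYB176, with 1 point per array (26 in each panel). The points form a narrow rising band for MYB92 (r = 0.889), a wider one for MYB133 (r = 0.716) and a loose cloud for MYB176 (r = 0.444).

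The flavonoid enzymes, taken as a list by symbol that includes CHS8, had a larger share of calls than all tested probe sets for rhythm, night against day and maturation, most of them from CHS8 probe sets that may match the same transcripts. Of 20 tested probe sets, 1 (5%) was called rhythmic, against 1.2% of all. At night 4 (20%) were lower, against 3.68% of all called in either direction, and 3 (15%) rose with the maturation mean, against 2.06%. Without the 4 CHS8 probe sets, 1 of the other 16 was called at night, CHI1A, a chalcone isomerase (-0.54 ± 0.12, limma adjusted p = 0.0236). The rhythm and maturation calls of the list were all of CHS8.

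Several MYB probe sets share a symbol or a probe cluster by their IDs, so the 27 are not taken as independent. Their sequences were not compared. Of the tested members 11 have an ID of a type that can match several transcripts, against 21.0% of all tested probe sets, and 6 symbols have 2 tested probe sets. These pairs did not all move together over the arrays. The 2 probe sets of MYB172 correlated at 0.97, those of MYB180 at 0.772, of MYB83 at 0.758, of MYB136 at 0.553 and of MYB48 at 0.532. The 2 of MYB50 correlated at 0.054, and the stronger of them correlated with MYB112, a symbol of the same probe cluster, at 0.666. For MYB83 r was only 0.102 and 0.416 within the arrays of low and of high lowest signal. These correlations are descriptions over 26 arrays that share times and processing.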

How the data were processed

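Expression arrays of 26 soybean seed pools were analysed from the table of log2 values that the authors deposited, made with GCRMA per the submitters' processing notes; version and settings were not found in the labels or headers used here. Gene symbols came from the platform annotation, and 45 of the 47 MYB probe sets were found under the same symbol in a RefSeq gene table. Probe sets with a mean log2 above 4 were tested. With limma 3.58.1 in R 4.3.3, models were fitted to all 11481 tested probe sets at once (time as 13 levels, a 24 h cosine, or a contrast), with Benjamini-Hochberg adjustment over all of them and a threshold of 0.05. Correlations used 100000 permutations in SciPy 1.17.1, or an exact swap of the replicates of each time. The tests were run on simulated data first. The MYB members, gene lists and tests were chosen with earlier results of these data known. Members given with values in text are those with the smallest p for rhythm, time or maturation, the highest means, the widest ranges and those of known role. Alternatives were the period, the minimum, weights, blocks, covariates and leaving out each array. Replicate numbers were checked. Deviations of same-numbered arrays correlated over 0.1 in 34 of 78 pairs of times, with a median of 0.022 and a range of -0.384 to 0.606. Replicate 1 was the array with the low lowest signal except at 64 and 72 h. With arrays ordered by low and high lowest signal, the median was 0.142. Some structure is thus shared between times. The numbers were not taken to pair samples, and the main fits held no block. The number of arrays limits the precision.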

Additional observations from a re-analysis of the deposited data

Results flagged for a closer look

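Of 44 sets of 4 to 8 arrays of the same subjective phase, over 11 named probe sets, 3 held an array far from the others, where chance gives about 1 in 20. MYB57 at subjective dusk had 4.75 in replicate 1 of 36 h, against 5.13 to 5.19 in the other dusk arrays. MYB172 at subjective dusk had 7.54 in replicate 1 of 60 h, against 8.83 to 8.94 in the others. MYB172 by subjective day had 7.59 in replicate 1 of 56 h, against 8.57 to 9.28 in the others. Replicate 1 of 72 h was low in MYB172 too, at 7.71.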

How the results depend on the processing

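The counts of 0 called members for rhythm, any difference, linear trend, dawn against dusk, and level and rhythm between cycles stayed 0 in every alternative fit of each, 30 to 39 per test. The night and day count of 1 became 0 without the minimum on the mean and without both 40 h arrays, and 2 (MYB133 and MYB177) with a minimum of 6 and with the high or low lowest signal as a block; leaving out each array gave 0 to 1, and in 3 of those fits the 1 was MYB133 or MYB92 and not MYB177. The maturation count of 1 became 2 (MYB92 and MYB133) with a cosine, sine and linear term in place of the 13 times. Of the 4 relations of MYB176 with CHS8, 2 passed by Pearson's r over the arrays, where shared times were ignored, and 0 over the replicate differences. The replicate block left all counts unchanged, 1 for night and day, 1 for maturation and 0 elsewhere, with MYB177 at an adjusted p of 0.0367. The causes were not tested. Dim members near the arrays' lowest signal carry little information.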
